A study of Cucumis melo with 8 samples.

Results

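The 30 conserved miRNA families of the Hami melon fruit were compared between ripening and early development, first as family totals and then by the member that made up most of each change. A family holds every mature sequence that carries the same miR number in its name, and its total is the summed TPM of its distinct sequences. TPM here is the reads of a miRNA scaled to a library total of 1000000 reads, without division by length. The deposited table lists 116 names, which reduce to 71 distinct mature sequences in 30 families, and all 30 families and 71 sequences entered the comparison. Of the families, 15 had 1 sequence and 15 had several, with 10 in miR169 as the highest number. The samples were fruit mesocarp, the flesh, of the Cucumis melo variety ‘Flavor No. 4’, with no treatment named. The early group was the 4 libraries of 10DAF and 20DAF (days after flowering), and the ripening group the 4 libraries of 30DAF and 40DAF. Each stage had 1 library in each of 2 batches, so the 4 libraries of a group are not replicates of 1 stage, and each SD holds the spread of stages and batches. In the first batch the RNA of 3 fruits was pooled for a library and read on the GAIIx, and in the second batch, from another season, a library came from 1 fruit and was read on the NextSeq. Season, pooling and instrument therefore cannot be told apart. The table holds only miRNAs, so the labelled tissue was not checked against marker genes.

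The TPM values are whole multiples of the value of 1 read, which gives the read totals by which the authors divided. These divisors are not the sequencing depth of the libraries. They ran from 233130 to 410945 reads in the first batch and from 105077 to 985263 reads in the second, and were lowest for 30DAF and 40DAF of the second batch, where 1 read is worth the most TPM. A value of 3 reads, taken here as the floor, is 7.30 to 12.9 TPM for first-batch libraries, and for second-batch ones 4.96 TPM at 10DAF, 3.04 TPM at 20DAF, 28.6 TPM at 30DAF and 22.2 TPM at 40DAF. The summed TPM of the 71 sequences was 586926 and 571433 in the early libraries of the first batch, 883434 and 871591 in its ripening libraries, and between 412477 and 506067 in the second batch. Floors and intervals cover counting error only, because PCR copies were not marked by molecular identifiers.

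Plant miRNAs are short RNAs, mostly near 21 nt, that an ARGONAUTE protein uses to find messenger RNAs with a closely matching site, which are then cut or not translated. Many conserved families each keep a small group of transcription factors in check. In Arabidopsis, miR156 acts on SPL factors and miR172 on AP2-like factors, which together time the phases of growth. Arabidopsis miR164 acts on NAC factors, miR159 on GAMYB-like factors, miR319 on TCP factors, miR396 on growth-regulating factors (GRFs) and miR169 on NF-YA subunits, all with known parts in growth and organ development. NAC and SPL factors also take part in fruit ripening in tomato.

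The members on which the comparison turns are printed first, as deposited, 5′ to 3′ and with T for U. Capitals mark bases 2 to 8, the seed stretch by which members were grouped, and names joined by a slash share the sequence. In miR164, miR164a and miR164c/d share their bases 2 to 8 and are 1 base apart, at position 21, while miR164b has other bases 2 to 8.
miR164a: tGGAGAAGcagggcacgtgct
miR164c/d: tGGAGAAGcagggcacgtgca
miR164b: tGGAGAGGcagggcacatgct
The 6 miR156 sequences fall into 3 groups by bases 2 to 8, and are shown because all of them were higher on average in ripening fruit. The sequence of miR156a/c/d/i lies wholly within miR156j, and that of miR156f within miR156b.
miR156a/c/d/i: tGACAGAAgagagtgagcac
miR156g/h: tGACAGAAgagagggagcac
miR156f: tGACAGAAgatagagagcac
miR156b: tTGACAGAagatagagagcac
miR156e: tTGACAGAagatagagggcac
miR156j: gTTGACAGaagagagtgagcac
In miR159, miR319, miR396 and miR172 the members shown share bases 2 to 8 within each family, and they are shown because their changes can be set against each other. No bases 2 to 8 were shared between families.
miR159a: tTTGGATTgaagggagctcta
miR159b: aTTGGATTgaagggagctcct
miR319a/b: tTGGACTGaagggagctccc
miR319c/d: tTGGACTGaagggagctcct
miR396a/c/d: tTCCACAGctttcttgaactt
miR396b: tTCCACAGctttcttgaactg
miR172b/c: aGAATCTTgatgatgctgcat
miR172e: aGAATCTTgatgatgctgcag
The miR169 members with the largest changes, miR169t and miR169k, share bases 2 to 8. The 24 nt sequences miR7129 and miR1863 are shown because their values went apart between the batches.
miR169t: tGAGCCAAgaatgacttgccggc
miR169k: tGAGCCAAggatgacttgcct
miR7129: aGTCAAATctaaacgatcgtgtat
miR1863: aGCTCTGAtaccatgttagatttg
Among the 71 sequences, 25 pairs are 1 base apart, and every pair lies within a family. Reads were matched with up to 1 mismatch, so reads of such a pair may have been shared or exchanged between the members, whereas a family total is not changed by an exchange within the family.

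Towards ripening, the totals of miR164 and miR156 rose, and no family total fell past the threshold in the main fit, which had no batch term. With the batch as a replicate block, miR319 also passed, as lower (log2 fold change -1.55, adjusted p = 0.0256 in limma). The log2 fold change of miR164 was 2.69 and that of miR156 was 2.06, on the log2(TPM + 5) scale on which all folds here are given. The rise of miR164 came mostly from miR164c/d, whereas that of miR156 was spread over several members. At the level of single sequences, miR164c/d, miR156e and miR156g/h rose and miR159b fell. In limma, with Benjamini-Hochberg adjustment over the 30 families, 2 families (6.67%) passed an adjusted p of 0.05 as higher and 0 (0%) as lower, and 4 families had an unadjusted p under 0.05. A voom fit to the read numbers behind the TPM, with the same divisors, also called 2 families higher and 0 lower. Divided by all clean reads of the library instead, 0 families passed as higher and 1 (miR319) as lower in limma, where the median of the families was -0.77. By the deposited TPM alone, 3 families (10%) had all 4 ripening libraries above all 4 early libraries, namely miR164, miR156 and miR169. In 0 families (0%) were all of them below. This separation was not examined on clean reads, and in unscaled read numbers none of the 3 had it within the second batch. Of the 30 families, 17 had a positive and 13 a negative log2 fold change, and their median was 0.14.

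In the fit of the 71 sequences, 3 (4.23%) passed as higher and 1 (1.41%) as lower, and 19 had an unadjusted p under 0.05. On clean reads, where the median of the sequences moved from 0.08 to -0.47, 1 passed as higher (miR164c/d) and 5 as lower (miR159b, miR167c, miR172e, miR319a/b and miR319c/d). By deposited TPM, 9 sequences (12.7%) had the 4 ripening libraries above the 4 early ones. These were 4 of the 6 miR156 sequences, 3 of the 10 miR169 sequences, miR164a and miR164c/d. The opposite, without overlap, held for 3 sequences (4.23%), which were miR159b, miR319c/d and miR399f, and the last of these never had more than 2 reads. Among the 9, some also rested on few reads in the second batch. There miR156f had 7 reads at 20DAF but 1 at 30DAF, and miR169i/j/l/m had 17 at 20DAF but 3 at 40DAF. miR156e had 2 reads and miR169k 4 reads at 30DAF of that batch.

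**Figure D1:**
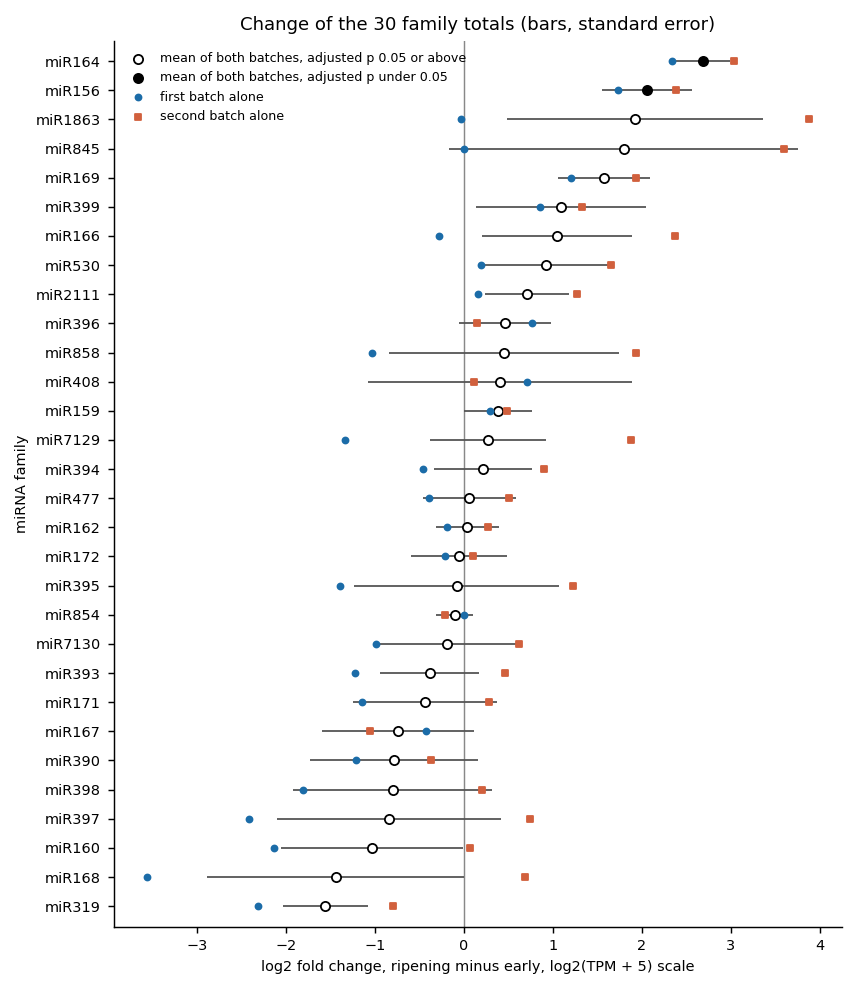
Log2 fold change (x axis, ripening minus early, log2(TPM + 5) scale) of the 30 family totals (y axis), as the mean of both batches with its standard error (bars) and in each batch alone (coloured points). miR164 at 2.69 and miR156 at 2.06 are the filled points, with adjusted p under 0.05, and miR319 has the lowest value at -1.55.

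The miR164 family, whose targets in Arabidopsis are NAC factors, had the smallest p of all families. Its total in the first batch was 1715 TPM at 10DAF, 2166 TPM at 20DAF, 8673 TPM at 30DAF and 11105 TPM at 40DAF. In the second batch the same stages had 877, 1580, 7642 and 12245 TPM. By deposited TPM, all 4 ripening libraries were thus above all 4 early libraries, and 40DAF was the highest stage in both batches. From 10DAF to 40DAF of the second batch these totals were 530, 1557, 803 and 1652 reads, so the separation there depended on the divisors. The mean rose from 1585 ± 534 TPM (SD, n = 4) in early fruit to 9916 ± 2126 TPM (SD, n = 4) in ripening fruit. The log2 fold change was 2.69 ± 0.30 (SE), with an adjusted p of 1.5e-04 in limma. It was 2.35 in the first batch, against 3.03 in the second, and the test of that difference gave an adjusted p of 0.554. Leaving out each library in turn kept the call, with adjusted p values up to 0.00292. Dividing by all clean reads of the library instead of the deposited total lowered the miR164 change to 1.51 (adjusted p = 0.0867), where the median of all families moved to -0.77, so that miR164 stood 2.28 above it.

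Within miR164, miR164c/d made up 91.9% of the summed absolute changes of the members and was the member of largest change in each batch. It had 581, 1133, 7475 and 9840 TPM from 10DAF to 40DAF in the first batch, against 87.7, 1046, 5843 and 10310 TPM in the second. By deposited TPM, the lowest ripening library, at 5843 TPM, was far above the highest early one, at 1133 TPM. In the second batch miR164c/d had 53, 1031, 614 and 1391 reads from 10DAF to 40DAF, so the separation there depended on the divisors. The mean of miR164c/d rose from 712 ± 482 TPM to 8367 ± 2090 TPM (SD, n = 4 each), with a log2 fold change of 4.02 ± 0.59 (SE) and an adjusted p of 0.0228 over the 71 sequences in limma. Its share of the family total was 40.6 ± 24.3% in early and 83.9 ± 5.25% in ripening libraries (SD, n = 4 each), with counting intervals at most 7.96 points wide. The miR164c/d call was lost in limma without 20DAF of the first batch (adjusted p = 0.133), 30DAF of the first (0.102), 40DAF of the first (0.106), 20DAF of the second (0.0803) or 30DAF of the second (0.0977), with log2 fold changes between 3.93 and 4.10 in these fits.

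The other miR164 members moved less. The values of miR164a were 1090, 1002, 1166 and 1240 TPM from 10DAF to 40DAF in the first batch, against 771, 504, 1761 and 1890 TPM in the second. By deposited TPM its groups did not overlap, but they came close in the first batch, and its log2 fold change of 0.87 ± 0.38 (SE) had an adjusted p of 0.211 in limma. In the second batch miR164a had 466, 497, 185 and 255 reads from 10DAF to 40DAF, so the separation there depended on the divisors. The scarce miR164b kept a mean of 30.7 TPM in early and 35.0 TPM in ripening libraries, with overlapping groups. Without miR164c/d the log2 fold change of the family total was 0.85. In the early libraries miR164a was above miR164c/d at 10DAF of both batches and below it at 20DAF of both, and at 30DAF and 40DAF miR164c/d was above in every library.

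**Figure D2:**
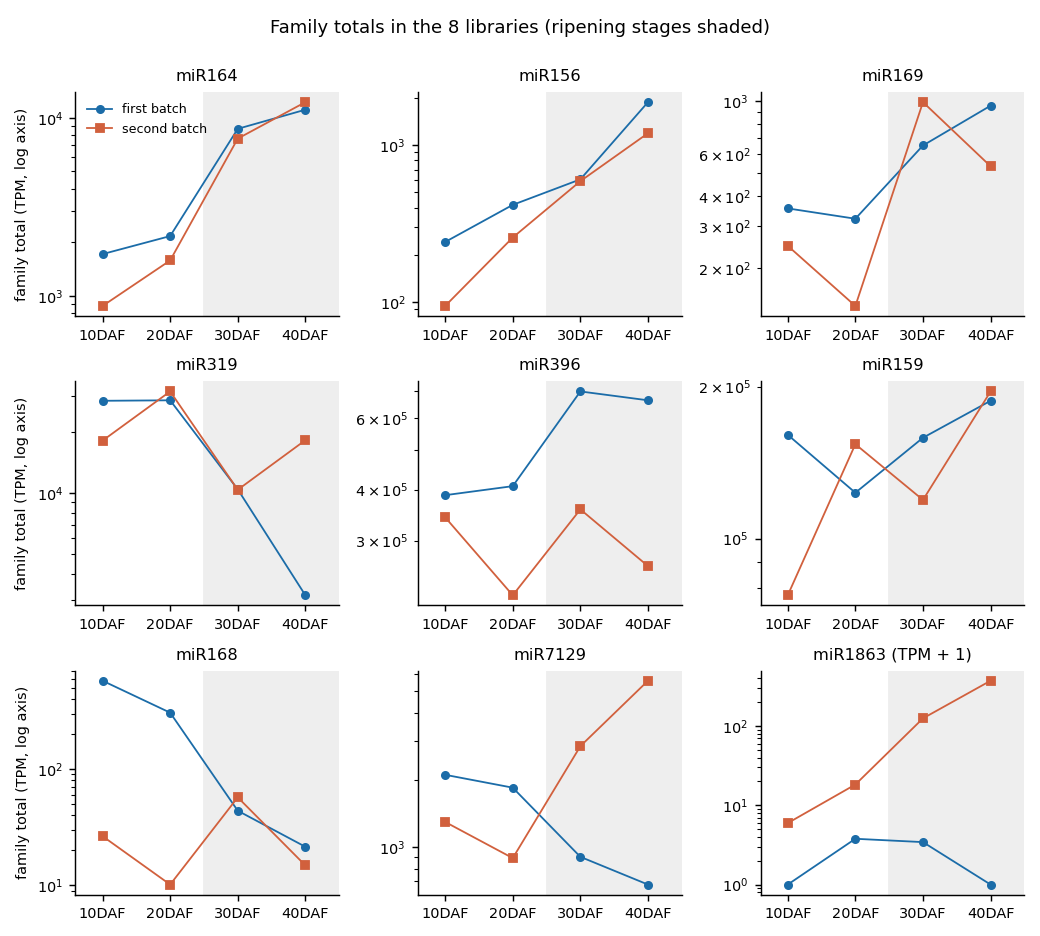
Family totals (y axis, TPM, log axis, with 1 TPM added for miR1863, which has values of 0) at the 4 stages (x axis) for 9 families, with a line for each batch and the ripening stages shaded. On deposited TPM, miR164, miR156 and miR169 are higher in all 4 ripening libraries, while the lines of miR7129 cross between the batches.

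Of the phase-timing pair, miR156 rose and miR172 did not pass the test. The miR156 total was 241, 417, 606 and 1883 TPM from 10DAF to 40DAF in the first batch, against 94.3, 258, 590 and 1193 TPM in the second. On deposited TPM, each stage was above the one before it in both batches, and the groups did not overlap. In the second batch the same totals were 57, 254, 62 and 161 reads, so that order depended on the divisors. The mean rose from 253 ± 132 TPM to 1068 ± 612 TPM (SD, n = 4 each), a log2 fold change of 2.06 ± 0.51 (SE) with an adjusted p of 0.0353 in limma. With the batch as a replicate block the adjusted p was 0.0145, and the change was 1.74 in the first batch, against 2.39 in the second. This call depended on the libraries and the scaling. In limma it was lost without 20DAF of the first batch (adjusted p = 0.0696), 30DAF of the first (0.160), 40DAF of the first (0.0665), 10DAF of the second (0.0746), 20DAF of the second (0.175) or 30DAF of the second (0.147), and on clean reads the change was 0.90 (adjusted p = 0.362), 1.67 above the median of the families. It was also lost, with adjusted p values from 0.0505 to 0.169, when libraries were scaled to the total of the 71 sequences, with 2 groups in place of 4 stages, without the mean-variance trend, with every name counted and with miR319 counted with miR159.

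No single member carried miR156. The member of largest change, miR156j, made up 31.7% of the summed absolute changes, and it was the largest in the first batch, whereas miR156b was in the second. The values of miR156j were 79.4, 117, 241 and 583 TPM in the first batch, against 24.8, 43.6, 133 and 341 TPM in the second, with a log2 fold change of 2.22 and an adjusted p of 0.0892 in limma, which the replicate block lowered to 0.0265. Without miR156j the family total still changed by 1.96 on the log2 scale. All 6 members had a positive log2 fold change, from 1.24 for miR156f to 2.73 for miR156g/h.

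The miR156 members that passed on their own were scarce in early fruit. miR156e had 9.53, 5.55, 19.5 and 129 TPM from 10DAF to 40DAF in the first batch, against 6.62, 5.07, 19.0 and 111 TPM in the second. Its early values were 3 reads or fewer in both first-batch libraries, and it had 2 reads at 30DAF of the second batch, so most of its change lay at 40DAF. The log2 fold change was 2.25 ± 0.48 (SE), with an adjusted p of 0.0494 in limma. miR156g/h had 6.35, 11.1, 24.3 and 352 TPM in the first batch, against 3.31, 4.06, 9.52 and 170 TPM in the second. The value of 9.52 TPM is 1 read and lies below the 11.1 TPM of an early library, so the groups overlapped, and 40DAF was far above the other stages in both batches. The log2 fold change of miR156g/h was 2.73 ± 0.59 (SE), also with an adjusted p of 0.0494. Both calls sat at the threshold. Leaving out a library gave adjusted p values from 0.0384 to 0.148 for miR156e, which passed without 10DAF of the first or 10DAF of the second batch, and from 0.0566 to 0.148 for miR156g/h, which passed in no such fit. In limma both calls were also lost with a pseudocount of 1 TPM (adjusted p = 0.0533 for each), on the other families (0.0514 for each), on the total of the 71 sequences (0.156 and 0.0922), on clean reads (0.302 and 0.228), with 2 groups (0.117 and 0.120) and with 2 groups and the replicate block (0.0806 and 0.0880), and that of miR156e by median ratio (0.0731).

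The miR172 total hid opposite values of its members. It was 302, 752, 526 and 322 TPM in the first batch, against 700, 317, 428 and 600 TPM in the second, a log2 fold change of -0.05 ± 0.54 (SE). miR172e made up 53.8% of the summed absolute changes. It had 85.8, 239, 12.2 and 8.58 TPM in the first batch, against 543, 14.2, 19.0 and 22.2 TPM in the second, so that its largest values were in 3 early libraries and 20DAF of the second batch lay among the ripening ones. Its log2 fold change was -2.64 ± 1.005 (SE), with an adjusted p of 0.170 in limma. miR172b/c, which is 1 base from miR172e at position 21, had a mean of 223 ± 126 TPM in early and 363 ± 104 TPM in ripening libraries (SD, n = 4 each), a log2 fold change of 0.81 with an adjusted p of 0.274. Without miR172e the miR172 total changed by 0.70.

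Among the families that act on growth and patterning factors, 7 of 9 had a positive and 2 a negative log2 fold change, with a median of 0.45 beside 0.14 for all 30 families, and 1 of the 9, miR164, passed the test. The signs depended on the scaling, with 5 positive and 4 negative when each library was scaled to its 71 sequences or by median ratio, and 2 positive and 7 negative on clean reads. The miR169 family, whose Arabidopsis targets are NF-YA subunits, came next to miR164 and miR156 in p among the higher families. Its total was 356, 322, 652 and 957 TPM in the first batch, against 248, 139, 990 and 534 TPM in the second. Each ripening TPM value exceeded each early one, and the highest stage was 40DAF in the first batch but 30DAF in the second. From 10DAF to 40DAF of the second batch these totals were 150, 137, 104 and 72 reads, so the separation there depended on the divisors. The means were 266 ± 96.0 TPM and 783 ± 225 TPM (SD, n = 4 each), and the log2 fold change of 1.57 ± 0.52 (SE) had an adjusted p of 0.0965 in limma and so did not pass. With the batch as a replicate block the adjusted p was 0.0695.

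miR169t made up 70.5% of the summed absolute changes of miR169 and was the largest in each batch. It had 235, 255, 516 and 781 TPM in the first batch, against 108, 79.2, 666 and 282 TPM in the second, without overlap, and its log2 fold change was 1.76 with an adjusted p of 0.125 in limma. miR169k had 9.53, 2.78, 21.9 and 60.1 TPM in the first batch, against 21.5, 6.09, 38.1 and 178 TPM in the second. Its log2 fold change of 2.17 ± 0.61 (SE) had an adjusted p of 0.0899, and it passed only with the replicate block. The total without miR169t changed by 1.17, and 4 of the 10 members had a mean of at least 10 TPM and a positive change of over 1.5-fold. In the RefSeq annotation of the melon genome GCF_025177605.1, all 5 pairs of neighbouring miRNA genes that were found belong to miR169, among them miR169k and miR169r.

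The miR319 family, which acts on TCP factors, had the most negative log2 fold change of the 30. Its total was 28413, 28569, 10437 and 3153 TPM in the first batch, against 18103, 31581, 10392 and 18205 TPM in the second. The early libraries were higher except that 40DAF of the second batch, at 18205 TPM, was just above 10DAF of the same batch, so the groups overlapped by this pair. The means were 26667 ± 5892 TPM in early and 10547 ± 6147 TPM in ripening libraries (SD, n = 4 each). The log2 fold change of -1.55 ± 0.48 (SE) had an adjusted p of 0.0928 in limma. Adding the batch as a replicate block made it pass (adjusted p = 0.0256). It also passed without 40DAF of the first batch (-0.92, adjusted p = 0.0465) and without 40DAF of the second batch (-2.19, adjusted p = 5.3e-09), when scaled on all families but miR159 and miR396 (-1.31, adjusted p = 0.0262) and on clean reads (-2.74, adjusted p = 0.00384).

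Both miR319 sequences went the same way. miR319a/b made up 70.3% of the summed absolute changes, with a log2 fold change of -1.58 and an adjusted p of 0.174 in limma. miR319c/d had 10407, 8422, 2998 and 1132 TPM in the first batch, against 6029, 6543, 3740 and 4388 TPM in the second, without overlap of the groups, and its log2 fold change of -1.49 had an adjusted p of 0.125. In limma miR319c/d passed by median ratio (adjusted p = 0.0495), on clean reads (0.00941) and without 40DAF of the second batch (0.0429), and miR319a/b passed on clean reads (0.0247) and without that library (0.0347). The share of miR319a/b in the family was 69.97 ± 6.86% in early and 68.8 ± 5.82% in ripening libraries (SD, n = 4 each).

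The miR159 and miR396 families held nearly all of the summed TPM of the 71 sequences, and in both the total and a scarcer member had opposite signs. The miR159 total, on GAMYB-like factors, was 160585, 123277, 158440 and 187569 TPM in the first batch, against 77217, 153848, 119303 and 195720 TPM in the second. The groups overlapped, and the log2 fold change of 0.39 ± 0.38 (SE) had an adjusted p of 0.794 in limma, with a negative sign under 3 other scalings. Nearly all of the total was miR159a, which made up 89.99% of the summed absolute changes.

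On the deposited scale, miR159b was the only sequence that fell past the threshold, while miR319c/d also passed as lower by median ratio, and miR167c, miR172e and both miR319 sequences on clean reads. It had 10337, 3773, 749 and 695 TPM from 10DAF to 40DAF in the first batch, against 6173, 1840, 1037 and 1356 TPM in the second. Every ripening library was below every early one, and 10DAF was the highest stage in both batches. The mean fell from 5531 ± 3662 TPM to 960 ± 304 TPM (SD, n = 4 each), with a log2 fold change of -2.30 ± 0.42 (SE) and an adjusted p of 0.0385 in limma. Its share of the family was 4.67 ± 3.10% in early and 0.602 ± 0.224% in ripening libraries (SD, n = 4 each), so the change of the family total did not show it. Left-out libraries gave log2 fold changes from -2.56 to -2.05 in fits where the adjusted p was above 0.05, which were those without 10DAF (0.0566), 20DAF (0.133), 30DAF (0.112) or 40DAF (0.106) of the first batch and without 10DAF (0.0528), 20DAF (0.0803) or 30DAF (0.0977) of the second, and the call was also lost with 2 groups and the replicate block (0.0504).

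The miR396 total, on growth-regulating factors, was the largest of all families. It was 387724, 408050, 697273 and 663141 TPM in the first batch, against 342146, 220103, 357814 and 259584 TPM in the second. The ripening libraries were above the early ones in the first batch and mixed with them in the second, and the log2 fold change was 0.46 ± 0.52 (SE), with an adjusted p of 0.794 in limma and a negative sign on clean reads. miR396b made up 81.8% of the summed absolute changes, with a log2 fold change of 0.65 and an adjusted p of 0.550.

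miR396a/c/d, which differs from miR396b only at position 21, was high in the early libraries of the first batch alone. It had 87107 and 99060 TPM at 10DAF and 20DAF there, against 5850 and 4911 TPM at 30DAF and 40DAF. In the second batch it had 4439, 4644, 3483 and 4255 TPM. Its log2 fold change was -2.18 ± 1.24 (SE), with an adjusted p of 0.404 in limma, and without miR396b the total of the family changed by -2.13. Its share of the family was 22.5% at 10DAF and 24.3% at 20DAF of the first batch, with 95% Wilson intervals of 22.2 to 22.7% and 24.1 to 24.5%, and between 0.741% and 2.11% in the other 6 libraries.

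**Figure D3:**
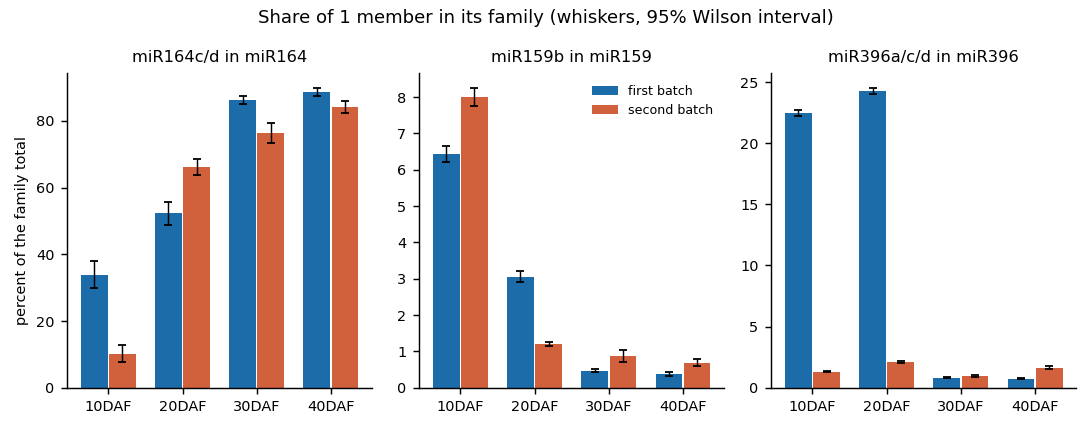
Share of the family total (y axis, percent) held by miR164c/d, miR159b and miR396a/c/d at the 4 stages (x axis) in each batch, with 95% Wilson intervals as whiskers. miR164c/d averages 83.9% in ripening libraries against 40.6% in early ones, miR159b stays under 1% in ripening libraries, and miR396a/c/d is above 20% only in the early libraries of the first batch.

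The other families on growth and patterning factors, miR166 on HD-ZIP III factors, miR171 on GRAS factors, miR394 on an F-box protein and miR858 on MYB factors in Arabidopsis, had log2 fold changes from -0.43 to 1.05, and none passed. For miR166 the highest stage was 30DAF in both batches, with 635 TPM in the first and 609 TPM in the second, while 40DAF of the first batch had 77.2 TPM.

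**Figure D4:**
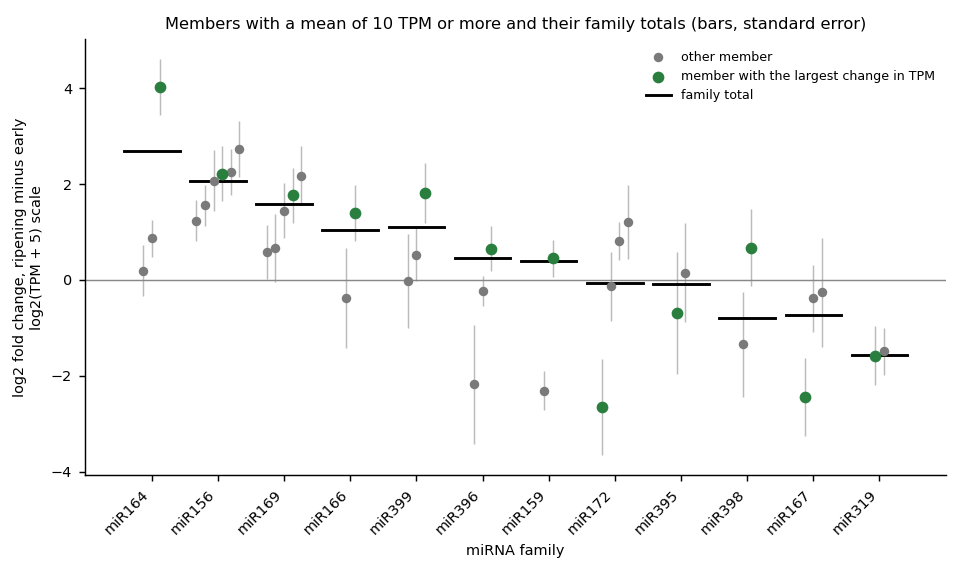
Log2 fold changes (y axis, ripening minus early, log2(TPM + 5) scale) of the members with a mean of 10 TPM or more in 12 families (x axis), with standard errors (bars), the member of largest change in TPM in green and the family total as a black line. In miR164 the total at 2.69 lies between miR164c/d at 4.02 and the other members, and in miR159 miR159b at -2.30 lies far from the total at 0.39.

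The 4 families of the auxin pathway all had negative log2 fold changes, with a median of -0.76 beside 0.14 for all 30 families, but none passed the test. All 4 were negative under the other scalings and in the voom fit as well, with medians from -1.80 to -0.55. In Arabidopsis miR160 and miR167 act on auxin response factors, miR390 starts the small RNAs that act on further response factors, and miR393 acts on the TIR1/AFB receptors. The miR160 total was 89.0, 41.7, 19.5 and 4.29 TPM in the first batch, against 23.2, 16.2, 28.6 and 14.8 TPM in the second. It was lower in ripening fruit in the first batch only, with -2.13 there and 0.08 in the second, and the log2 fold change of -1.03 ± 1.03 (SE) had an adjusted p of 0.794 in limma. The ripening values of the second batch were 3 reads or fewer, so a fall there was not detectable at these read numbers. miR160a/b/c made up 96.9% of the changes of that family.

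The miR167 total was 403, 317, 392 and 180 TPM in the first batch, against 177, 186, 47.6 and 148 TPM in the second, with a log2 fold change of -0.74 and an adjusted p of 0.794 in limma. Its member of largest change was miR167c, with 85.8, 72.2, 12.2 and 0 TPM in the first batch, against 38.1, 10.2, 0 and 7.41 TPM in the second. The highest 3 of these were early libraries, and the log2 fold change of -2.44 ± 0.81 (SE) had an adjusted p of 0.125. At 30DAF of the second batch the miR167 total was 5 reads. The total of miR390 was 28.6, 16.7, 9.73 and 4.29 TPM in the first batch, against 56.3, 18.3, 38.1 and 14.8 TPM in the second, a log2 fold change of -0.79 with an adjusted p of 0.794. Its ripening values were 4 reads or fewer in each library. For miR393 the change was -1.22 in the first batch, against 0.46 in the second.

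The 3 copper-linked families, miR397 on laccases, miR398 on copper superoxide dismutases and miR408 on copper proteins such as plantacyanin, had log2 fold changes of -0.83, -0.80 and 0.41, of which the last was also negative on clean reads, and none passed. The miR398 total was 229, 439, 621 and 8.58 TPM in the first batch, against 97.6, 31.5, 247 and 14.8 TPM in the second, highest at 30DAF in both batches and lowest at 40DAF in both. The mean of the ripening stages thus joined the highest and the lowest libraries. Its members had opposite signs, -1.34 for miR398a and 0.67 for miR398b, with adjusted p values of 0.569 and 0.715 in limma. The value of miR398b rested on 190 TPM at 30DAF of the second batch, since its other 7 libraries had at most 14.6 TPM, and without that library its log2 fold change was -0.16. miR397 and miR408 were high in libraries of the first batch and at most 19.0 TPM in the second.

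Of the families linked to phosphate and sulfate supply, miR399 (on PHO2 in Arabidopsis) had a log2 fold change of 1.10 for its total, miR2111 0.71 and miR395 (on sulfate assimilation and transport genes) -0.08. None passed, and on clean reads all 3 were negative. In miR399 the member of largest change was miR399g, with 71.1% of the summed absolute changes, and without it the total changed by 0.32. Bases 2 to 8 of miR399g differ from those that the other 5 miR399 sequences share, so its value need not stand for the rest of the family. The miR2111 total was 435, 694, 621 and 609 TPM in the first batch, against 199, 563, 542 and 1223 TPM in the second, with an adjusted p of 0.794 in limma and a negative sign on clean reads. The groups overlapped, and the highest library was 40DAF of the second batch.

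The silencing machinery is itself under miRNA control in Arabidopsis, with miR168 on ARGONAUTE1 and miR162 on DICER-LIKE1. The miR168 total was 575, 305, 43.8 and 21.5 TPM in the first batch, against 26.5, 10.2, 57.1 and 14.8 TPM in the second. Only the early libraries of the first batch stood out, and the log2 fold change of -1.44 ± 1.44 (SE) had an adjusted p of 0.794 in limma. The change was -3.56 in the first batch, against 0.68 in the second, and the test of that difference gave an adjusted p of 0.0559. miR162 had between 811 and 2446 TPM in all 8 libraries and a log2 fold change of 0.04 ± 0.35 (SE).

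The remaining 7 families have no role given here. The highest of them, miR7129, had 2109, 1846, 903 and 678 TPM in the first batch, against 1295, 891, 2836 and 5581 TPM in the second. By deposited TPM, its ripening libraries were below the early ones in the first batch and above them in the second. The log2 fold change of the total was therefore 0.28 ± 0.65 (SE), with an adjusted p of 0.907 in limma and a negative sign under 3 other scalings, while it was -1.33 in the first batch, against 1.88 in the second. In the second batch it had 783, 878, 298 and 753 reads from 10DAF to 40DAF, so the rise there depended on the divisors. miR1863 had at most 2.78 TPM, which is 1 read, in the first batch, against 4.96, 17.3, 124 and 371 TPM in the second. Its log2 fold change of 1.93 ± 1.44 (SE), with an adjusted p of 0.794, came from the second batch. miR845 was at 0 TPM in all 4 libraries of the first batch and had 31.4, 54.8, 419 and 749 TPM in the second. miR477, miR530, miR854 and miR7130 had at most 44.5 TPM in any library.

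The batches were compared for each family by the interaction of ripening and batch, with the 2 stages of a kind in a batch standing as replicates. In limma, 1 of the 30 families (3.33%) passed an adjusted p of 0.05 for a difference of the change, and this was miR7129, with a difference of 3.21 ± 0.69 (SE, adjusted p = 0.0324). Scaled on all families but miR159 and miR396, the miR7129 difference was 2.28 and did not pass (adjusted p = 0.103). For miR845 and miR1863 the adjusted p was 0.0504. On the deposited scale, 9 families were higher in ripening fruit in both batches and 3 were lower in both (miR319, miR167 and miR390). Of these, miR390 had at most 4 reads in any ripening library, and miR408, among the 9, had 2 reads in each second-batch ripening library. miR530, also among the 9, had 0, 0, 0 and 6 reads from 10DAF to 40DAF of the second batch. Another 16 were lower in the first and higher in the second, while 0 were higher in the first and lower in the second. The other 2 families, miR845 and miR854, had no read in the first batch. The median log2 fold change over families was -0.33 in the first batch, against 0.65 in the second, and the change in the second batch exceeded that in the first for 26 of 30 families. In the first batch the summed TPM of the 71 sequences differed between early and ripening libraries, as given above, and the part of this difference in the batch values was not tested. In the second batch the deposited divisors were 604437 and 985263 reads in early and 105077 and 134912 reads in ripening libraries. Apart from the fit scaled on the other families, the batch values rest on these divisors. The batches were not compared on clean reads, so these counts and medians hold for the deposited scale only.

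**Figure D5:**
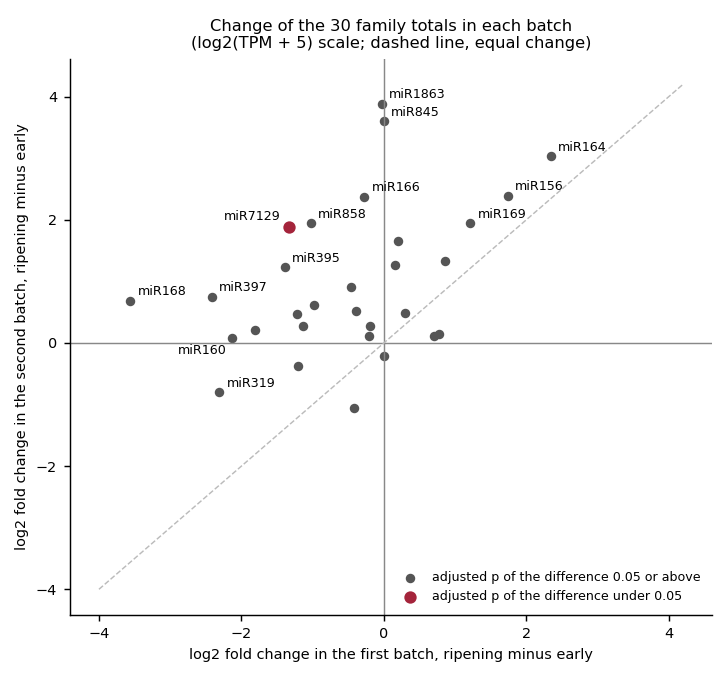
Log2 fold change of the 30 family totals, with the first batch on the x axis and the second on the y axis, ripening minus early on the log2(TPM + 5) scale, with a dashed line of equal change. On the deposited scale, miR164, miR156 and miR169 are high in both batches and miR319 is low in both. miR7129, at -1.33 and 1.88, is the family whose difference passed on that scale, though not when scaled on all families but miR159 and miR396. All values shown rest on the deposited divisors, and the batches were not compared on clean reads.

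The member of largest change was the same in each batch and over both batches in 9 of the 15 families with several sequences. It differed between the batches in 5 (miR156, miR167, miR171, miR395 and miR398). In the remaining one, miR477, the member over both batches was that of neither batch, at family totals of at most 22.2 TPM. The member of largest change made up between 31.7% (miR156) and 96.9% (miR160) of the summed absolute changes, and over 50% in 14 of the 15 families. In 6 of the 15 families the total without that member had the opposite sign. In 3 families, miR172, miR396 and miR398, members with a mean of at least 10 TPM had opposite log2 fold changes of over 1.5-fold.

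The miR159 and miR396 families together held 92.9 ± 1.62% of the summed TPM of the 71 sequences in early and 94.96 ± 2.94% in ripening libraries (SD, n = 4 each). From 10DAF to 40DAF the first batch had shares of 93.4, 93.0, 96.9 and 97.6% and the second batch 94.5, 90.7, 94.3 and 91.1%, with 95% Wilson intervals at most 0.430 points wide. The groups overlapped, and the difference of 2.07 points had an exact two-sided permutation p of 0.229, where the smallest p that 4 libraries against 4 allow is 0.0286. The difference was 4.03 points in the first batch, against 0.105 points in the second.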

How the data were processed

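Small RNA of 8 mesocarp libraries was analysed from the table of conserved miRNAs. The authors clipped adapters, removed low-quality reads and those matching rRNA or tRNA, matched the rest with Bowtie (version not given in the sources used here) to plant miRNAs of miRBase with up to 1 mismatch, and deposited TPM values, which are reads scaled to a library total of 1000000 (RPM). An empty extra field in 1 line was dropped. Names sharing a sequence were counted once, and TPM was summed by miR number. The multiples of 1 read, within 0.006 TPM, held for 100% of values.

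In R 4.3.3, limma 3.58.1 was fitted to log2(TPM + 5) with its trend option and the 4 stages as groups, over all 30 families or all 71 sequences without a filter. The contrast was the mean of 30DAF and 40DAF minus that of 10DAF and 20DAF, with Benjamini-Hochberg adjustment. Per the study's methods each fruit came from a different plant, and a stage has 1 library per batch, so p values measure the spread between the 2 libraries of a stage, batch included. The suffix 1 or 2 of a sample title was read as the first or second batch. A batch is a shared season, and same-numbered libraries deviated together in 6 of 6 pairs of stages (mean r 0.711, from 0.610 to 0.830), so the fit with the batch as a replicate block is given where it changed a call. The fits were tested on simulated data. Python 3.11.15 with scipy 1.17.1 gave the exact permutation test.

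Families named are those past the threshold, the 5 of smallest p in each direction, the 5 of highest mean TPM and those with opposed members, and others appear in counts by role or where their values were singled out after being seen. Members and role lists were chosen with earlier results of these data known. As alternatives, the pseudocount was 1 or 20 TPM, families and sequences under a mean of 10 TPM were dropped, and other scalings were tried, with the block, 2 groups, no trend, other groupings and left-out libraries beside them. Of the 116 names, 92 were matched to a RefSeq gene, from which neighbouring genes were read.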

Additional observations from a re-analysis of the deposited data

Results flagged for a closer look

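The miR2111 total at 40DAF of the second batch was 1223 TPM, against 542 to 621 TPM in the other 3 ripening libraries, and its gap was beyond the 95% critical value of Dixon's test. The test was run on 30 groups of 4 libraries, and chance gives a flag in about 1 in 20 groups.

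The change of miR7129 towards ripening differed between the batches by 3.21 on the log2 scale (second minus first), with an adjusted p of 0.0324 in limma. It was 2.28 and did not pass when scaled on all families but miR159 and miR396 (adjusted p = 0.103). For miR395 the difference was 2.62 and for miR858 2.97, and each was lower in both ripening libraries of the first batch and higher in both of the second. The adjusted p of the difference was 0.0812 for each in limma, so neither passed, although both did without the mean-variance trend (0.0310 for each). The miR395 total was 753, 536, 273 and 210 TPM from 10DAF to 40DAF in the first batch, against 36.4, 50.7, 105 and 111 TPM in the second. The miR858 total was 9.53, 8.33, 0 and 4.29 TPM in the first batch, all at or under 3 reads, and 21.5, 28.4, 76.1 and 156 TPM in the second. In reads, the second batch had 783, 878, 298 and 753 for miR7129 and 22, 50, 11 and 15 for miR395. For miR858 these were 13, 28, 8 and 21 reads, so the order of the stages there depended on the divisors for each of these families.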

How the results depend on the processing

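The rise of miR164 passed under every alternative run except scaling on clean reads. The family count of 2 became 1 when libraries were scaled to the total of the 71 sequences, on clean reads (miR319, lower), with 2 groups, without the trend, with miR319 counted with miR159, with every name counted and with sequences grouped by bases 2 to 8 (1 of 40 groups), and ran from 1 to 3 with each library left out. The sequence count of 4 became 2 with a pseudocount of 1 TPM, scaled to the total of the 71 sequences, scaled on all families but miR159 and miR396 and with 2 groups, and 1 with 2 groups and the replicate block. It was 6 on clean reads (1 higher, 5 lower) and 5 by median ratio, where miR156j and miR319c/d were gained and miR156e was lost, and ran from 0 to 5 with each library left out, where a stage left with 1 library is assumed to vary like the others. The count of families whose change differed between batches was 4 with a pseudocount of 20 TPM, 2 scaled on the other families (miR845 and miR1863, but not miR7129) and 6 without the trend.

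The median of all families was -0.13 scaled to the total of the 71 sequences, 0.37 on the other families, -0.14 by median ratio and -0.77 on clean reads, against 0.14. Signs turned for families near 0 at the same settings. miR159 was -0.026 on the total of the 71 sequences, -0.0013 by median ratio and -0.79 on clean reads, and miR7129 was -0.14, -0.11 and -0.90. On clean reads miR396 was -0.72, miR2111 -0.46, miR159a -0.73, miR172b/c -0.35 and miR396b -0.53. miR172 was 0.18 on the other families, 0.22 with every name counted. With each library left out, miR172 ran from -0.36 to 0.26, miR398 from -1.70 to 0.10, miR398b from -0.16 to 1.50 and miR7129 from -0.48 to 1.04. The causes were not tested. With the replicate block the family count was 3 and the sequence count 6, and the block changed the calls of miR319, miR156j and miR169k (both of these higher) and no others. The planned count test was not run. The voom fit and the fit of 2 groups with the block were chosen after seeing the data. Small numbers of miRNA reads limit the families near 3 reads, mostly in the ripening libraries of the second batch.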
